A study of Rattus norvegicus with 6 samples.

Results

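A set of 7 genes that mark neural stem cells or carry Notch signalling was described in cultured rat spinal cord ependymal stem cells with and without glutamate. They were Nes, Vim, Sox2, Pax6, Notch1, Hes1 and Egfr, a set given by Ensembl ID, and all 7 were present among the 32883 gene rows of the count tables. The ependymal cells line the central canal of the cord and can act as stem cells after injury. RNA was sequenced in bulk at day 2 from 3 control libraries kept in neurobasal medium and from 3 libraries whose medium also held 500 uM glutamate, a level named as excitotoxic by the submitters. The labels name the species (Rattus norvegicus) and the cell type, but no strain, age, sex, passage or batch, and they do not say whether replicates came from separate animals or cultures. P-values therefore measure only the spread between these libraries, which may be technical.

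Nestin and vimentin are intermediate filament proteins of immature neural cells, and SOX2 and PAX6 are transcription factors of neural progenitors. SOX2 keeps these cells in an undifferentiated state. NOTCH1 is a receptor that is cut when a ligand on a neighbouring cell binds it. The released fragment joins the DNA-binding protein RBPJ and switches on targets such as Hes1, a repressor that holds back neuronal genes and also its own transcription. EGFR is the receptor for epidermal growth factor, a mitogen used to expand neural stem cells in culture.

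Total counts ran from 166567977 to 181352365 per library, and levels are given as CPM (counts scaled to a library total of 1000000, adjusted by TMM factors), so that 1 CPM stood for about 167 reads or more. Control replicate 1 stood apart from the other control libraries. Over genes whose mean reached 5 CPM, its root mean square difference in log2 CPM was 0.23 from control replicate 2 and 0.32 from control replicate 3. Control replicates 2 and 3 differed by 0.14, and the glutamate libraries by 0.10 to 0.16. Results that depend on control replicate 1 are given with and without it. Nes, Vim and Sox2 were read in every library, their lowest counts being 21434, 127537 and 70281. Egfr, of the same set, was close to absent, with 0 to 13 reads per library. These counts do not settle which cells were present. Markers of mature ependyma and of other cell types were not looked up, because the tables given with the data do not pair the Ensembl IDs with names. The part of other cell types in the differences below was not tested. In bulk RNA, fewer cells that express a gene and less of its RNA per cell cannot be told apart.

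Hes1 rose with glutamate and Nes fell, and the other 4 tested genes did not pass the threshold. Of the 7 genes, 6 had enough reads to be tested, and Egfr did not. Calls were made in 2 of the 6 (edgeR quasi-likelihood test, adjusted p below 0.05), where 27.7% of all 15919 genes tested were called. Of these 1 was higher, as were 14.1% of all genes tested, and 1 was lower, as were 13.7%. Control and glutamate values did not overlap in 4 of the 6 genes, against 46.8% of all genes tested. In 2 of them (Notch1, Hes1) the glutamate values were the higher, as in 22.8% of all genes, and in 2 (Nes, Pax6) the lower, as in 24.0%. The median log2 fold change of the 6 genes was 0.08, beside -0.01 over all genes tested. These shares are too close to the background, over too few genes, to set the group apart from other genes.

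**Figure D1:**
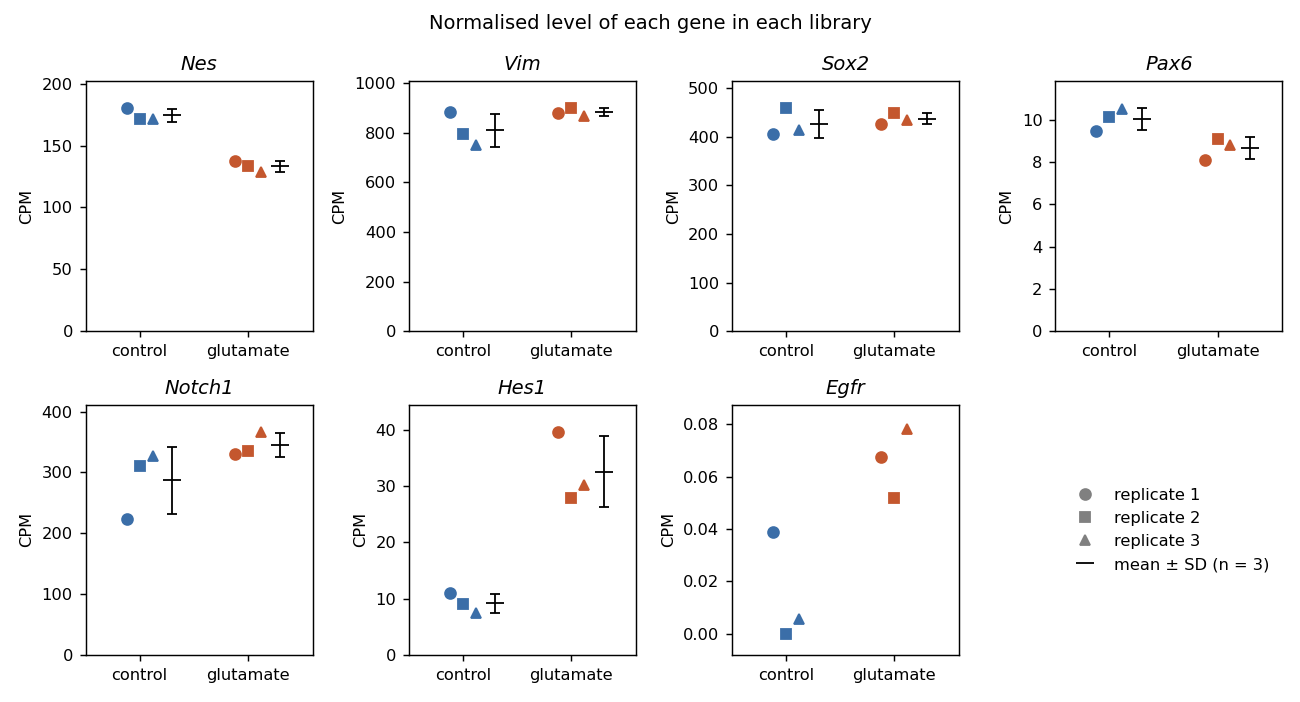
Level of each gene in CPM (vertical axis, on the scale of each gene) in the 3 control and 3 glutamate libraries, 1 symbol per replicate, with mean ± SD (n = 3) beside the points except for Egfr. Hes1 lies between 7.53 and 10.97 CPM in control and between 27.9 and 39.7 CPM with glutamate, Nes is lower in all 3 glutamate libraries, and Vim and Sox2 overlap between groups.

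The receptor was described first. Notch1 (ENSRNOG00000019322) was at 223, 311 and 326 CPM in control replicates 1, 2 and 3, and at 330.3, 336 and 367 CPM in glutamate replicates 1, 2 and 3. Every glutamate library lay above every control library, but the gap between the nearest values was 3.99 CPM and control replicate 1 lay far below the other 5 libraries. The group means were 287 ± 55.7 CPM in control and 344 ± 19.8 CPM with glutamate (SD, n = 3 each). The log2 fold change was 0.26 (SE 0.14, 95% interval -0.06 to 0.59) and was not called (edgeR adjusted p = 0.192). Without control replicate 1 the change was 0.11 on the log2 scale (SE 0.05; adjusted p = 0.13 in edgeR), less than the value over all 6 libraries by more than 1.5 times. It was larger, 0.36, without control replicate 3 (edgeR adjusted p = 0.0669). Notch1 was not called in any fit with 1 library left out.

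Hes1 (ENSRNOG00000001720), the Notch target, rose in all glutamate libraries. It was at 10.97, 9.03 and 7.53 CPM in control replicates 1, 2 and 3, and at 39.7, 27.9 and 30.2 CPM in glutamate replicates 1, 2 and 3. The lowest glutamate library lay 16.9 CPM above the highest control library, so the groups were well separated. Group means were 9.18 ± 1.72 CPM and 32.6 ± 6.29 CPM (SD, n = 3 each), and the relative spread was alike, with a coefficient of variation of 18.8% in control and 19.3% with glutamate. Reads behind these values numbered 1279 in control replicate 3, the lowest, where counting alone gives an error of 2.80%, well under the replicate spread. The log2 fold change was 1.83 (SE 0.18, 95% interval 1.41 to 2.25), a 3.55-fold rise (interval 2.65 to 4.75; edgeR adjusted p = 0.000407). Of the 15919 genes tested, 256 (1.61%) had a larger fitted rise. The call also held against a change of 1.2-fold (edgeR glmTreat, adjusted p = 0.000704), a bar that 6.51% of all genes tested passed as rises. Control replicate 1 had the highest Hes1 of its group and the lowest Notch1. Without it Hes1 differed by 1.97 on the log2 scale (SE 0.19; adjusted p = 0.00104 in edgeR).

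Because Hes1 had the largest fitted change of the 6 tested genes and Notch1 is its upstream receptor, the 250 bases before their start sites are shown, 5′ to 3′ on the strand of the gene, from RefSeq (build GRCr8, not the rn6 build of the counts). Capitals mark TGGGAA, the core of the site that RBPJ binds.
Hes1: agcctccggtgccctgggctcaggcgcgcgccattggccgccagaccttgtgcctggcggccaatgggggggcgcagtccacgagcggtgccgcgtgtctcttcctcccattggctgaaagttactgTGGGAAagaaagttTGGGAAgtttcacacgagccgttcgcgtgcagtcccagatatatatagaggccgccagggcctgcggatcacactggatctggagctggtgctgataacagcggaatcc
Notch1: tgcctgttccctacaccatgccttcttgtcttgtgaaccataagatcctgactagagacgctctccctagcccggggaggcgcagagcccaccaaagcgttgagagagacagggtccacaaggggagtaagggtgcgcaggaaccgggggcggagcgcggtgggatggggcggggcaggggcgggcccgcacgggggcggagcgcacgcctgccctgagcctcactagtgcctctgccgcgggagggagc
The Hes1 stretch is at chr11:84213046-84213295 and the Notch1 stretch at chr3:29721614-29721863, both on the minus strand. Hes1 held 2 copies of TGGGAA on its own strand, at bases -123 to -118 and -109 to -104 counted from the start site, with 8 bases between them. Notch1 held no copy on either strand in this window. Over 33469 RefSeq windows of the same length, 22.1% held at least 1 copy on either strand and 2.71% held 2 or more. The cut at 2 or more was chosen after the sequences were seen. Pax6 had 1 copy, and the windows of the other 4 genes (Nes, Vim, Sox2 and Egfr) had none.

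The N-box CACNAG, a sequence that HES proteins bind, was searched on both strands in the same windows. For this motif 4 matches lay before Hes1 and 4 before Notch1, of which 2 at Notch1 overlap each other on opposite strands. Pax6 and Egfr had 1 match each, and Nes, Vim and Sox2 had none. At least 1 match was found in 37.2% of all windows and 2 or more in 8.02%. The share of windows with 4 or more was not counted. The E-box CANNTG, which reads the same on both strands and is bound by proneural factors, occurred once, before Sox2, and in 65.5% of all windows. The windows of Nes and Pax6 begin inside the RefSeq gene span, 873 and 562 bases in from its outer end to the start site used, so they may hold transcribed sequence. These matches describe the letters in the windows and say nothing of binding in these cells.

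**Figure D2:**
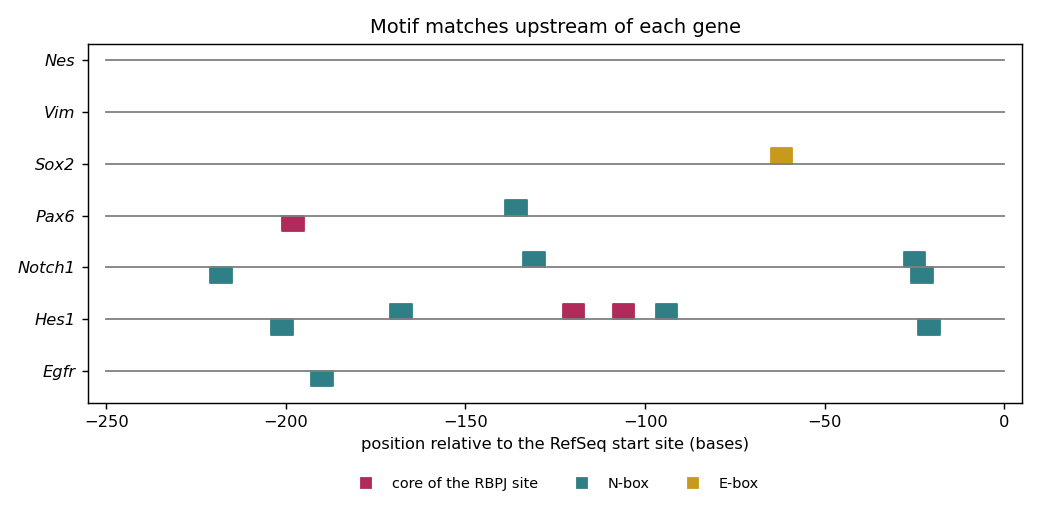
Matches to 3 motifs in the 250 bases before the RefSeq start site of each gene, with position in bases on the horizontal axis and boxes above the line for the strand of the gene and below it for the other strand (the E-box reads the same on both). Hes1 holds 2 copies of the RBPJ core, Pax6 holds 1 and the other 5 genes hold none.

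The ratio of Notch1 to Hes1 reads within a library does not depend on how libraries are scaled, and gene length cancels when libraries are compared. There were 20.3, 34.4 and 43.3 Notch1 reads per Hes1 read in control replicates 1, 2 and 3. With glutamate there were 8.32, 12.1 and 12.2. The highest glutamate value lay below the lowest control value, and the geometric mean of the ratio was 2.92-fold lower with glutamate. On the log2 scale the ratio went from 4.96 ± 0.56 to 3.42 ± 0.31 (SD, n = 3 each). The exact two-sided permutation p was 0.1, the smallest that 3 against 3 libraries can give (0.136 after Benjamini-Hochberg adjustment over the 15 pairs of tested genes). The groups did not overlap in 11 of these 15 pairs, 5 of the 5 that hold Hes1 and 6 of the 10 that do not. They overlapped in 4 pairs (Nes to Pax6, Vim to Sox2, Vim to Notch1 and Sox2 to Notch1). The pairs reuse the same 6 genes, so they are not separate results. The share over pairs of all genes was not computed, and 46.8% of all single genes tested did not overlap. The count of pairs therefore does not set the members apart from other genes.

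**Figure D3:**
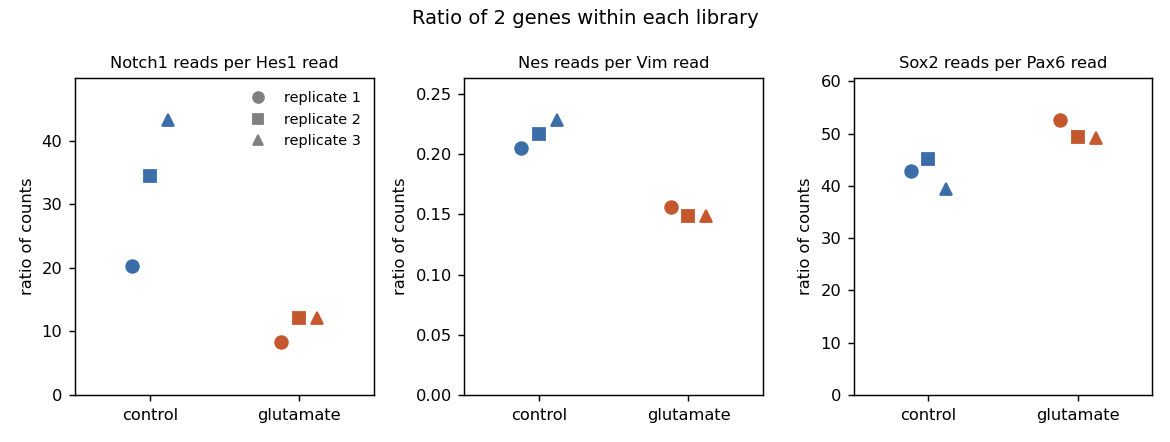
Ratio of the counts of 2 genes within each library (vertical axis, reads per read) for Notch1 to Hes1, Nes to Vim and Sox2 to Pax6, 1 symbol per replicate. In each panel the 3 glutamate libraries lie on 1 side of the 3 control libraries: lower for Notch1 to Hes1 and Nes to Vim, higher for Sox2 to Pax6. Groups were likewise apart in 11 of all 15 pairs of tested genes, these 3 included. The share over pairs of all genes was not computed.

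The intermediate filament genes did not move alike. Nes (ENSRNOG00000018681), which encodes nestin, was at 180.5, 171 and 172 CPM in control replicates 1, 2 and 3, and at 137, 134 and 129 CPM in glutamate replicates 1, 2 and 3. The groups did not overlap, and replicates lay close together, with a coefficient of variation of 2.96% in control and 3.19% with glutamate. Means were 175 ± 5.17 CPM and 133 ± 4.25 CPM (SD, n = 3 each). Nes fell by 0.39 on the log2 scale (SE 0.05, 95% interval -0.51 to -0.27), or 1.31-fold (edgeR adjusted p = 0.000746). Of the 15919 genes tested, 1401 (8.80%) had a more negative fitted change. Tested against a change of 1.2-fold it was not called (edgeR glmTreat, adjusted p = 0.0509), a bar that 2.90% of all genes tested passed as falls.

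Vim (ENSRNOG00000018087), which encodes vimentin, was at 882, 792 and 751 CPM in control replicates 1, 2 and 3, and at 879, 899 and 867 CPM in glutamate replicates 1, 2 and 3. The groups overlapped through control replicate 1, which was as high as the glutamate libraries. Means were 808 ± 66.9 CPM and 882 ± 16.5 CPM (SD, n = 3 each). The log2 fold change was 0.13 (SE 0.07, 95% interval -0.03 to 0.28) and was not called (edgeR adjusted p = 0.192). Without control replicate 1 it was 0.19 (SE 0.04) and Vim was called higher (edgeR adjusted p = 0.00518), as were 16.6% of all genes tested in that fit.

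Nes and Vim were also compared within libraries. Control replicates 1, 2 and 3 held 0.205, 0.216 and 0.229 Nes reads per Vim read, and glutamate replicates 1, 2 and 3 held 0.156, 0.148 and 0.148. The ratio was lower in every glutamate library, control replicate 1 included among the controls, by 1.43-fold on average. The exact two-sided permutation p was again 0.1, the smallest possible (0.136 after adjustment over 15 pairs).

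Neither progenitor transcription factor was called over all 6 libraries. Sox2 (ENSRNOG00000012199) was at 405, 459 and 414 CPM in control replicates 1, 2 and 3, and at 426, 449 and 434 CPM in glutamate replicates 1, 2 and 3. All 3 glutamate values lay within the control range. Means were 426 ± 29.0 CPM and 436 ± 11.3 CPM (SD, n = 3 each), and the fitted difference was 0.04 on the log2 scale (SE 0.06; adjusted p = 0.702 in edgeR). Its 95% interval, -0.10 to 0.17, spans changes from -6.98% to 12.9%.

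Pax6 (ENSRNOG00000004410) was at 9.48, 10.2 and 10.5 CPM in control replicates 1, 2 and 3, and at 8.10, 9.11 and 8.83 CPM in glutamate replicates 1, 2 and 3. Every glutamate library lay below every control library, by 0.369 CPM at the nearest. At least 1437 reads lay behind each value, for a counting error of at most 2.64%. Means were 10.05 ± 0.523 CPM and 8.68 ± 0.521 CPM (SD, n = 3 each). The log2 fold change was -0.21 (SE 0.09, 95% interval -0.41 to -0.01) and was not called after adjustment (edgeR adjusted p = 0.102). Without control replicate 1 it was -0.25 (SE 0.09) and Pax6 was called lower (edgeR adjusted p = 0.0448), as were 16.3% of all genes tested in that fit.

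Set against each other, Sox2 and Pax6 gave 42.7, 45.2 and 39.4 Sox2 reads per Pax6 read in control replicates 1, 2 and 3. Glutamate replicates 1, 2 and 3 gave 52.6, 49.3 and 49.2. The ratio was higher in every glutamate library, by 1.19-fold on average (exact two-sided permutation p = 0.1, the smallest possible; 0.136 after adjustment over 15 pairs).

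**Figure D4:**
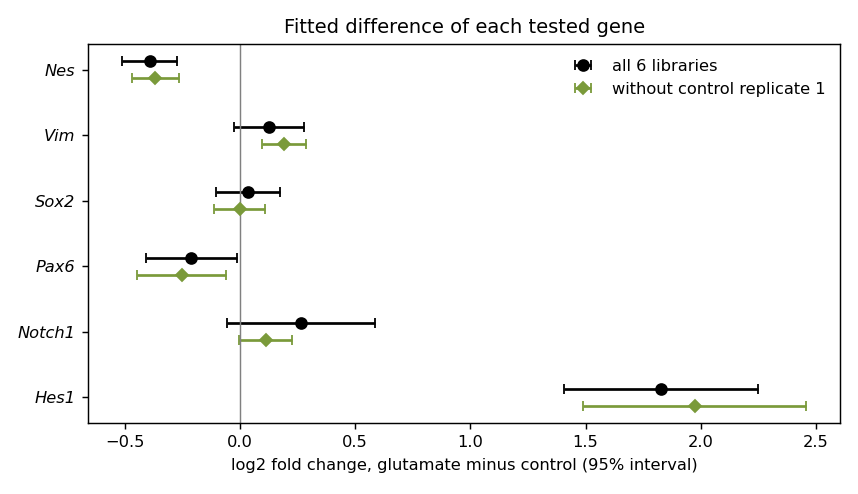
Fitted log2 fold change (horizontal axis, glutamate minus control) of the 6 tested genes with its 95% interval, over all 6 libraries (black circles) and without control replicate 1 (green diamonds). Hes1 stands at 1.83 and 1.97 and Nes at -0.39 and -0.37, while the intervals of Sox2 and Notch1 include 0 in both fits.

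Egfr (ENSRNOG00000004332) was close to absent. Control replicates 1, 2 and 3 held 7, 0 and 1 reads, and glutamate replicates 1, 2 and 3 held 12, 9 and 13. Every glutamate library had more reads than every control library, but 7 of the 8 control reads came from control replicate 1. The 34 reads of the glutamate libraries together stood at 0.0657 CPM, here relative to the unadjusted library totals, with an exact Poisson 95% interval of 0.0455 to 0.0918 CPM, which covers counting error only. On the same unadjusted scale the 8 control reads stood at 0.0151 CPM (interval 0.00652 to 0.0298 CPM). If a count of 0 is taken to allow 3 counts, control replicate 2 could hold up to 0.0167 CPM. By the same exact interval as above its upper limit was 0.0205 CPM. With no filter on low counts Egfr was tested and not called (edgeR adjusted p = 0.121), where 9.74% of all genes tested were called higher. Without control replicate 1 it passed the filter and was called higher (edgeR adjusted p = 0.00866), as were 16.6% of all genes tested in that fit. This call rests on 1 control read. Egfr also passed the filter without control replicate 2, control replicate 3 or glutamate replicate 2. It was not called in those fits (edgeR adjusted p = 0.202, 0.160 and 0.140 in that order). Since an Ensembl ID could not be looked up by name here, the near absence holds for the row with this ID.

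How the libraries of a group differed among themselves was also compared. The largest deviations from a group mean were those of Notch1 in control libraries and of Hes1 in both groups. In control replicate 1 Hes1 lay 0.27 above its group mean of log2 CPM and Notch1 lay at -0.34, and in control replicate 3 the signs were the other way, -0.27 for Hes1 and 0.21 for Notch1. Glutamate replicate 1 had the highest Hes1 of all 6 libraries, 0.30 above its group mean, with Notch1 at -0.06. In glutamate replicate 2 both genes lay below their group means, Hes1 at -0.21 and Notch1 at -0.03. Control replicate 2 had Hes1 at -0.01 and Notch1 at 0.14, and glutamate replicate 3 had -0.09 and 0.09. Deviations of Nes were at most 0.05, and those of Vim, Sox2 and Pax6 at most 0.13, 0.11 and 0.10 in size.

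Across the 6 libraries, likeness was measured as the root mean square difference of mean-centred log2 CPM, where smaller is more alike. Vim and Sox2 were the nearest pair (0.11), and Nes and Pax6 were each other's nearest gene (0.13). Notch1 was nearest to Sox2 (0.20). Hes1 stood far from all others, with Notch1 the nearest at 0.86, Vim almost as near at 0.87 and Nes the farthest at 1.13. These distances describe 6 libraries that share the same 2 groups.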

How the data were processed

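Bulk RNA of 6 libraries was sequenced after preparation with a directional kit, which marks strand, per the labels' protocols. The authors deposited 1 table of raw counts per library with Ensembl gene IDs, per the file headers. The submitters' processing notes name featureCounts 2.0.1, SAMtools, STAR 2.7.8a, Trim Galore 0.6.5 and build rn6. How strand and shared reads were handled, and with which annotation, is not given in the sources used here. Reads of overlapping genes on the other strand may therefore be included. The files hold no gene names. The 7 symbols came with the choice of genes, and 0 rows of the RefSeq gene table (GRCr8) carry an Ensembl ID, so the pairing could not be checked and planned lists of Notch pathway, stem cell, EGFR ligand and cell type marker genes were not evaluated.

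Genes were kept by filterByExpr (minimum count 10, minimum total 15), which left 15919. Libraries were scaled by TMM. Glutamate was tested against control over all 6 libraries with no covariate by the robust quasi-likelihood test of edgeR 4.0.16 in R 4.3.3, with Benjamini-Hochberg adjustment over all genes tested and a threshold of 0.05. The standard error is the size of the log2 fold change divided by the square root of F. CPM uses TMM-scaled totals. Alternatives were RLE factors, total counts, DESeq2 1.42.0, no filter, at least 1 CPM in 3 or more libraries, a block for the replicate number, each library left out, and a test against 1.2-fold. The fit was tested on simulated data. All 7 genes were named by rule. The members and lists were chosen with earlier results of these data known. Motif pairs (2 or more matches) were counted after the sequences were seen. Sequences were matched by symbol for all 7 genes.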

Additional observations from a re-analysis of the deposited data

How the results depend on the processing

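Hes1 and Nes kept their direction and their call under RLE factors, total counts, DESeq2, both other filters, the replicate block and each left-out library, with log2 fold changes of 1.67 to 1.97 and -0.41 to -0.37 when 1 library was left out. Leaving out 1 library gave 0.071 to 0.191 for Vim, 0.11 to 0.36 for Notch1 and -0.25 to -0.15 for Pax6. It gave 1 to 3 of the genes called higher and 1 to 2 called lower. The extra calls came without control replicate 1 (Vim, Egfr, Pax6); the cause was not tested. Over all tested genes it gave 2420 to 5584 calls (1397 to 2921 higher, 945 to 2663 lower), against 4413 (2239 and 2174). Against 1.2-fold, 1 of the genes was called higher and 0 lower, and 1497 of all genes were called (1036 and 461), since this asks for a larger change. Sox2 was at -0.00 without control replicate 1 and was not called in any fit.

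Same-numbered libraries are not stated to be paired. Correlations of their deviations from the group means were 0.15, -0.13 and 0.35 for numbers 1, 2 and 3. Between control and glutamate libraries of unlike number they ran from -0.35 to 0.18. With the replicate block 4553 genes were called, Hes1 was at 1.83 (SE 0.09) and Nes at -0.39, and Notch1 was at 0.28 (edgeR adjusted p = 0.0543), so no call among the 6 genes changed. Of the 7 genes, Egfr alone failed the count filter over all 6 libraries, and its few reads leave wide counting intervals. Why they are few was not tested.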
